A study of Rattus norvegicus with 12 samples.

Results

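Ier2, Ier3, Ier5, Maff, Mafk, Csrnp1, Cebpb, Cebpd, Trib1 and Midn are genes that many cells switch on early after a stimulus, before new protein is made, and their RNA was measured in rat forebrain after a visit to an unfamiliar environment. All probe sets (groups of array probes for 1 transcript) whose annotation gives exactly 1 of these symbols were taken, which gave 16 probe sets for 10 genes, out of 31042 probe sets and 14217 named genes on the array. The samples were 12 male Long Evans rats, 6 weeks old, each held in a cage of its own for several days. In the exposed group, 6 animals spent 3 hours among objects of varied shape and colour, and the control group was 6 animals left in the standard laboratory cage. Each animal gave 1 Affymetrix expression array from total RNA of the whole forebrain, so the values average over all its regions and cell types, and fewer cells of a type cannot be told apart from less RNA per cell. No time other than 3 hours was sampled. The genes were selected on earlier results of these arrays, that is, on the intensity difference between the exposed and control groups. That difference is described below for them, and any limma call on it is a description and no independent support.

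These genes act at several steps of the early response. Maff and Mafk are small Maf proteins, transcription factors with a leucine zipper but no activation domain of their own, which act through partners such as Nrf2 and Bach1. Cebpb and Cebpd are leucine zipper factors of the C/EBP family, known for acute-phase and inflammatory gene control, and Cebpb also for a role in long-term memory in rodents. The Ier proteins are short-lived regulators without an enzyme activity, Trib1 is a pseudokinase that brings C/EBP proteins to the ubiquitin ligase Cop1, and Midn (midnolin) carries early gene products to the proteasome in human and mouse cells.

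The 10 genes fell into 3 patterns. Intensities of Ier2, Ier5, Csrnp1, Trib1 and Midn were higher in all 6 animals of the exposed group than in any control animal, with log2 changes (exposed minus control) of 0.54 to 0.95. Cebpb and Cebpd were higher in 5 of 6 animals, by 0.48 and 0.37. Ier3 and Mafk lay within 0.07 of no change, and Maff was below the floor of 53.8 intensity units (the 20th percentile of all values) on every array. Groups without overlap, higher in the exposed group, were seen for 2.81% of the 12674 named genes above the floor on at least 1 array. At an adjusted p under 0.05 in limma, Ier2, Ier5, Csrnp1, Cebpd, Trib1 and Midn passed, all higher, where 2.62% of the 14217 named genes were higher and 0.844% lower. Counted by probe set, 7 of the 16 were higher, where 1.97% of all 31042 were higher and 0.599% lower. These 6 of 10 describe how the genes were chosen. The median log2 change was 0.51 over the 10 genes, with Maff at 0 because of the floor, and 0.54 over the 9 genes above it. The median was 0.00 over all 31042 probe sets and also over the brightest probe set of each named gene.

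**Figure D1:**
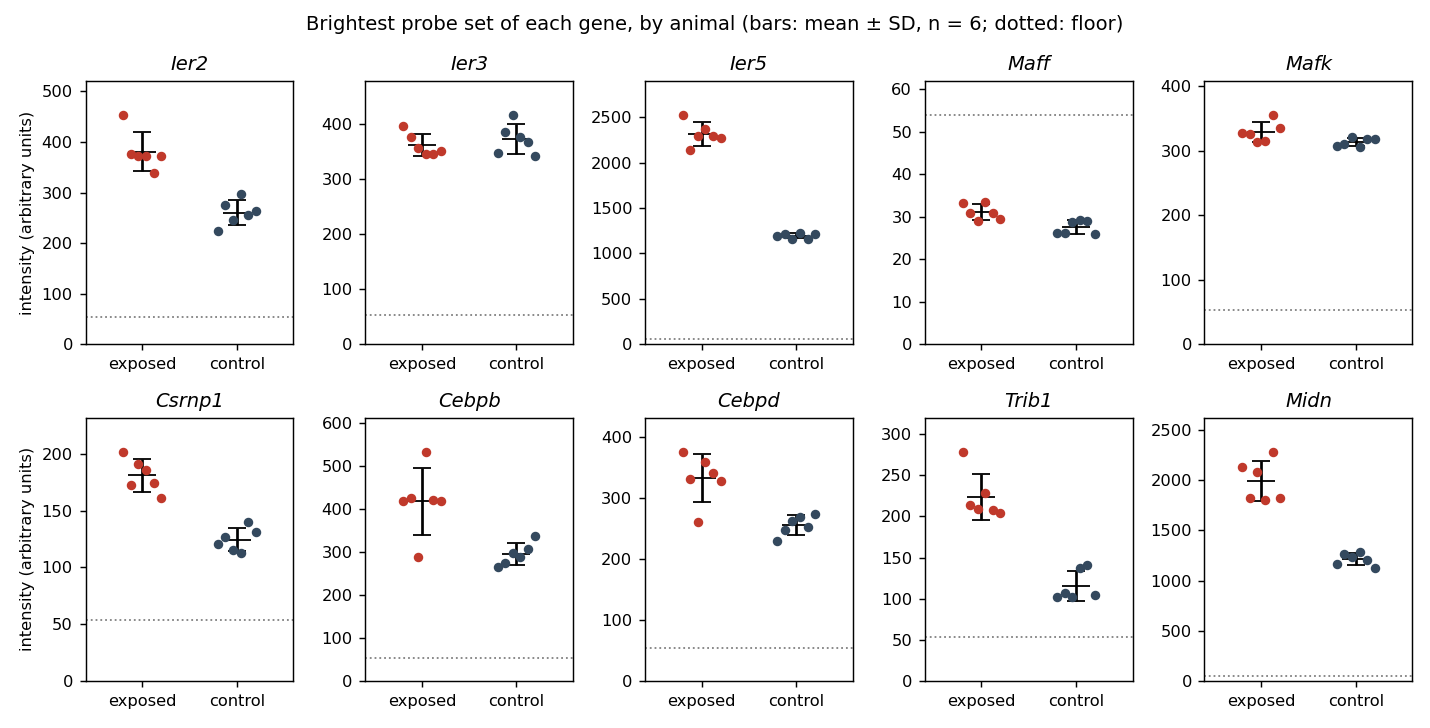
Intensity in arbitrary linear units (vertical axis from 0) at the brightest probe set per gene, 1 point per animal, exposed in red and control in dark blue, with the mean ± SD of 6 animals and the floor dotted. Points of the groups are apart for Ier2, Ier5, Csrnp1, Trib1 and Midn, 1 low exposed animal overlaps the controls in Cebpb and Cebpd, and all 12 Maff points lie under the floor.

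The bases just before the start site are shown for 3 of the genes, because Ier2 and Maff carry the same site and differ in what the array recorded, and Cebpb carries shortened copies of it. The promoter table of RefSeq (build GRCr8) holds 6 of the 10 genes. The windows are the 250 bases before the start site, given 5′ to 3′ on the strand of the gene, at chr19:40399123-40399372 for Ier2 (plus strand), chr7:112792537-112792786 for Maff (plus strand) and chr3:176816755-176817004 for Cebpb (plus strand). Capitals mark the cAMP response element palindrome TGACGTCA, which CREB family factors bind, and its core TGACG, on either strand.
Ier2: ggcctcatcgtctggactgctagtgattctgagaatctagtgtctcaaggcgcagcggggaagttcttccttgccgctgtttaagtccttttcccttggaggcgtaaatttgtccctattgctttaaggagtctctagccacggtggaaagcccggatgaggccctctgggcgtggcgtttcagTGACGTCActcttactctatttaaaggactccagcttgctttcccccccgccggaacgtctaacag
Maff: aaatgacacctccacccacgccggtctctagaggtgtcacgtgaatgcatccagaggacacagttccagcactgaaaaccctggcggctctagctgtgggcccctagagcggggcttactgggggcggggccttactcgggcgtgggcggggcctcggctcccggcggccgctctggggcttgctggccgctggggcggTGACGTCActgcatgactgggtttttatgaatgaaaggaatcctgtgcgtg
Cebpb: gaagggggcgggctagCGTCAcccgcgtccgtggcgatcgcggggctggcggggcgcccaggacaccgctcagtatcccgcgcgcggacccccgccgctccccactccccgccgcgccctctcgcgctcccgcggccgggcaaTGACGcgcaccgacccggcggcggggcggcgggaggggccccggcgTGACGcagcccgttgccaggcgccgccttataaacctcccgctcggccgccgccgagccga
Ier2 has the palindrome from base -66 to -59 counted from the start site, and Maff has it from -51 to -44. Of 33469 promoters of this length, 1.59% hold the palindrome. The core occurs 3 times in Cebpb and once in Mafk, outside any palindrome, and 18.2% of promoters hold it, counting those within palindromes. Ier5 and Midn have neither. None of the 6 windows holds a CArG box, the site of the serum response factor (1.50% of promoters), or the AP-1 site TGANTCA (6.34%). The CArG box was searched only in its strict form (CC, then 6 letters of A or T, then GG). Looser forms and bases further upstream were not searched. The GC box GGGCGG, found in 30.5% of promoters, occurs in Ier5, Maff, Mafk and Cebpb. Both strands were searched, the palindrome holds the core on each strand, and a match is a run of letters and no evidence of binding.

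**Figure D2:**
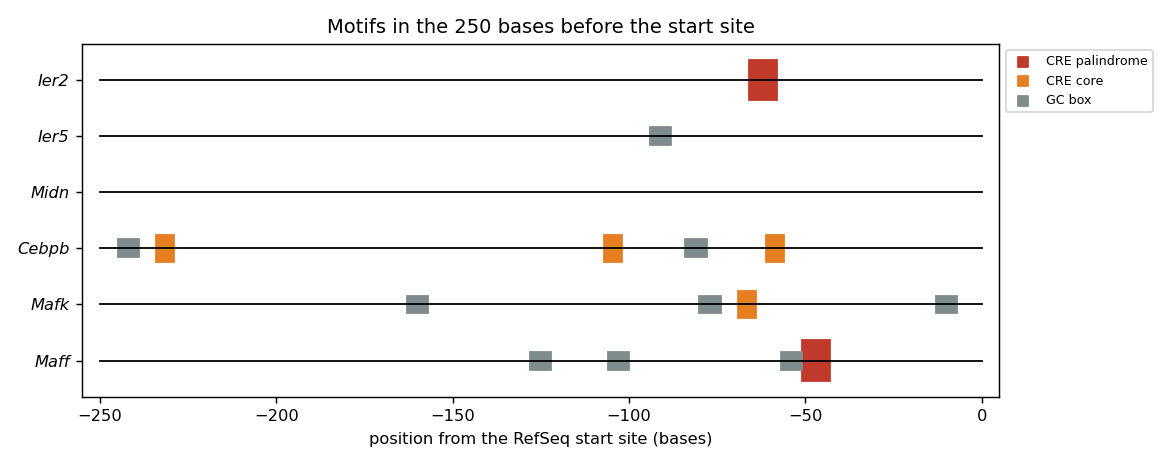
Motif matches on either strand in the 250 bases before the RefSeq start site of 6 genes, with the distance from the start site in bases on the horizontal axis. The red blocks are the palindromes of Ier2 and Maff, orange blocks are cores outside a palindrome, and grey blocks are GC boxes.

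Among the transcription factors, Csrnp1, a cysteine- and serine-rich nuclear protein first described as a gene induced by Axin, was measured by 1 probe set. Its intensity ran from 161 to 202 (median 180) in exposed animals and from 113 to 140 (median 124) in control animals. Every exposed animal lay above every control, and the log2 change was 0.54 ± 0.07 (SE, 6 animals per group), or 1.46-fold. With the floor raised to the 40th percentile of all values it was 0.29.

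Cebpb ran from 289 to 533 (median 420) in exposed animals and from 266 to 338 (median 294) in control animals. The groups overlapped through exposed animal 3 alone, the lowest of its group at 289, while the other 5 lay above every control. The log2 change was 0.48 ± 0.12 (1.40-fold), and 0.58 without that animal. The spread among exposed animals was the widest of the 10 genes, with an SD of 18.6% of the mean, against 8.70% in controls. The brightest of 3 Cebpd probe sets ran from 260 to 375 (median 336) in exposed animals and from 229 to 274 (median 257) in control animals. Again animal 3 was the low one, and the change was 0.37 ± 0.08 (1.29-fold), or 0.44 without it. A dimmer Cebpd probe set gave 168 to 215 in exposed animals and 132 to 174 in control animals, a change of 0.30 ± 0.08 with 4 of 6 animals above every control. The remaining Cebpd probe set was below the floor on all arrays, and the mean of the 3 changed by 0.22.

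Of the small Maf genes, Mafk changed little and the change of Maff could not be read. Mafk ran from 314 to 355 (median 327) in exposed animals and from 306 to 322 (median 314) in control animals. The groups overlapped, with 4 of 6 exposed animals above every control. The log2 change of Mafk, 0.07 ± 0.03, was small beside those of Ier5 and Trib1. Maff, whose window holds the palindrome shown above, had 28.9 to 33.4 intensity units in exposed animals and 26.0 to 29.3 in control animals. All of these are under the floor, so no fold is given, and its response cannot be read from this array.

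Of the Ier genes, Ier5, which binds the phosphatase PP2A and the heat shock factor Hsf1, had the tightest separation. Its brightest probe set ran from 2137 to 2521 (median 2294) in exposed animals and from 1158 to 1222 (median 1204) in control animals. The log2 change was 0.95 ± 0.03 (1.94-fold), and the SD was 5.48% of the mean in exposed animals and 2.40% in controls. A dimmer Ier5 probe set gave 280 to 361 in exposed animals and 166 to 217 in controls, again without overlap, with a change of 0.76 ± 0.08. The dimmest gave 86.0 to 95.4 in exposed animals and 71.3 to 88.0 in controls, with 3 of 6 animals above every control and a change of 0.17 ± 0.05. The 3 Ier5 probe sets thus pointed the same way and differed in size, the change being smaller at lower mean intensity, and their mean changed by 0.63.

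Ier2, a nuclear regulator of transcription, ran from 338 to 453 (median 373) in exposed animals and from 224 to 297 (median 259) in control animals. The groups did not overlap, and the log2 change was 0.55 ± 0.08 (1.46-fold). Ier3, a regulator of cell death and ERK signalling that stress and growth factors induce, ran from 346 to 396 (median 354) in exposed animals and from 342 to 416 (median 372) in control animals. No exposed animal was above every control or below every control, and the log2 change was -0.04 ± 0.05.

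Trib1 and Midn, which act on protein degradation, were both higher. The brightest Trib1 probe set ran from 204 to 278 (median 211) in exposed animals and from 102 to 141 (median 106) in control animals, without overlap. The log2 change was 0.95 ± 0.11 (1.94-fold), as large as that of Ier5 with a wider error. Of its other probe sets, 1 was below the floor on all arrays and 1 on 10 of 12, so they give no size of change. The change of Trib1 was 0.33 as the mean of its 3 probe sets and 0.59 with the floor at the 40th percentile. Midn ran from 1805 to 2281 (median 1954) in exposed animals and from 1127 to 1283 (median 1219) in control animals. The groups were apart by a wide gap, and the log2 change was 0.71 ± 0.06 (1.64-fold).

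**Figure D3:**
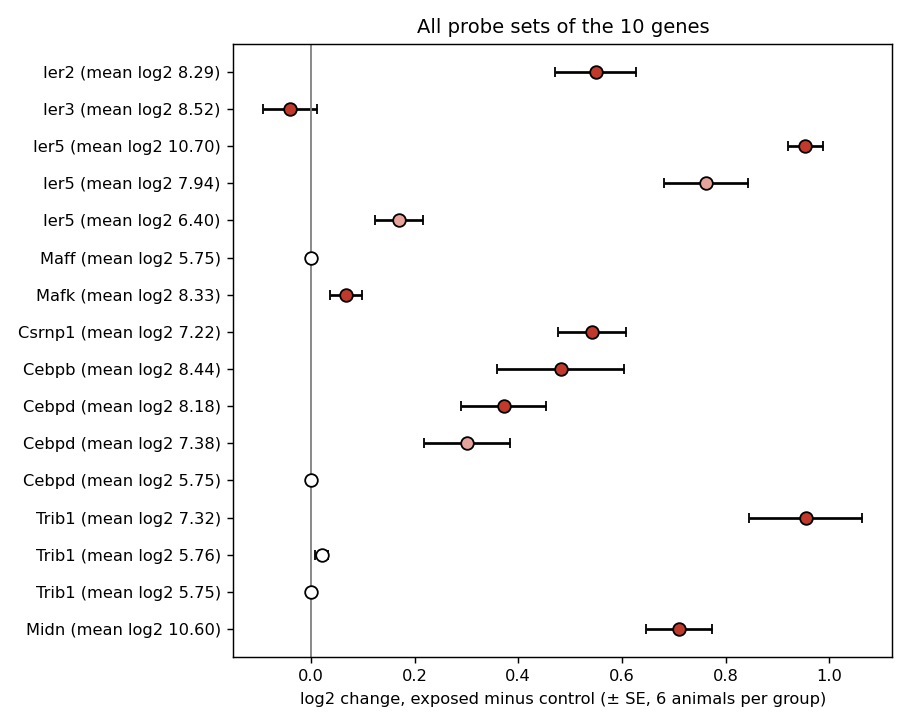
Log2 change (exposed minus control, ± SE of the limma fit, 6 animals per group) of all 16 probe sets, labelled by gene and mean log2 intensity. Dark red marks the brightest probe set of a gene and pale red a dimmer one, and open points were at the floor on 10 or more arrays. Dimmer probe sets of Ier5 and Cebpd show smaller changes than the brightest.

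No animal had the highest or the lowest value of its group in all 9 genes above the floor. Exposed animal 1 had the highest value of its group in 6 of the 9 genes above the floor, namely Ier2, Ier3, Ier5, Csrnp1, Cebpd and Trib1. Exposed animal 3 was the lowest in Cebpb, Cebpd and Mafk and was close to its group in Ier2 and Ier5. In the control group, animal 1 was the lowest in Ier2, Cebpb, Cebpd and Trib1, and animal 6 the highest in Cebpb and Cebpd.

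Variation within the groups is apart from the difference in group means that chose the genes, so it was tested. The choice may still have favoured genes with a small spread within the groups. A score per animal was formed from 13 genes that glucocorticoid hormones induce, among them Sgk1, Fkbp5, Tsc22d3 and Pdk4, as the mean log2 value less the group mean. Each probe set was fitted in limma with the group and this score. Between the groups, the 13 genes had log2 changes of 0.005 to 0.86 (median 0.35), a difference that the score leaves out. Of them, 2 were higher and 0 lower in limma (adjusted p under 0.05), where 2.62% of named genes were higher and 0.844% lower. The score ran from -0.30 to 0.25 in exposed animals and from -0.17 to 0.13 in control animals, with exposed animal 3 the lowest of all. Cebpb had a slope of 0.91 ± 0.29 log2 units per unit of score (unadjusted p = 0.0103, adjusted p = 0.242 in limma), and Cebpd 0.50 ± 0.23 (unadjusted p = 0.0525, adjusted p = 0.413). Neither passed, and 0 of the 9 genes did, where 0.254% of 31042 probe sets passed. At an unadjusted p under 0.05 the count was 1 of 9, Cebpb, beside 3822 of 31042 probe sets, a share near that of the 9. The slopes varied with the animals and the model: without exposed animal 3 they were 0.46 for Cebpb and 0.13 for Cebpd. That animal also had the largest gap between 3 prime and 5 prime probe sets of the Gapdh and beta-actin controls, which tracks RNA degradation, at 0.59 on the log2 scale, and the other exposed animals had 0.39 to 0.44 and controls 0.33 to 0.44. With this gap as a covariate the slopes were 0.14 and -0.19. In both groups animals numbered 1 to 3 had lower scores than those numbered 4 to 6, and nothing in the labels gives the numbers a meaning. With that split as a term the slopes were 1.63 for Cebpb (adjusted p = 0.404 in limma) and 1.20 for Cebpd (adjusted p = 0.417 in limma), and with the animal number as a block 1.82 and 1.40 (adjusted p = 0.836 and 0.820 in limma).

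A matching score was formed from 9 activity genes, Fos, Fosb, Junb, Egr1, Egr2, Egr4, Arc, Nr4a1 and Nr4a3, all of which rose, by log2 changes of 1.07 to 3.63. After their group means were removed, this score ran from -0.13 to 0.13 in exposed animals and from -0.17 to 0.16 in control animals. With it 0 of the 9 genes passed in limma, and 0% of all probe sets did. Ier5 had the smallest unadjusted p of the 9 (slope 0.34 ± 0.13, unadjusted p = 0.0238, adjusted p = 1.00), and 683 of 31042 probe sets reached an unadjusted p under 0.05.

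**Figure D4:**
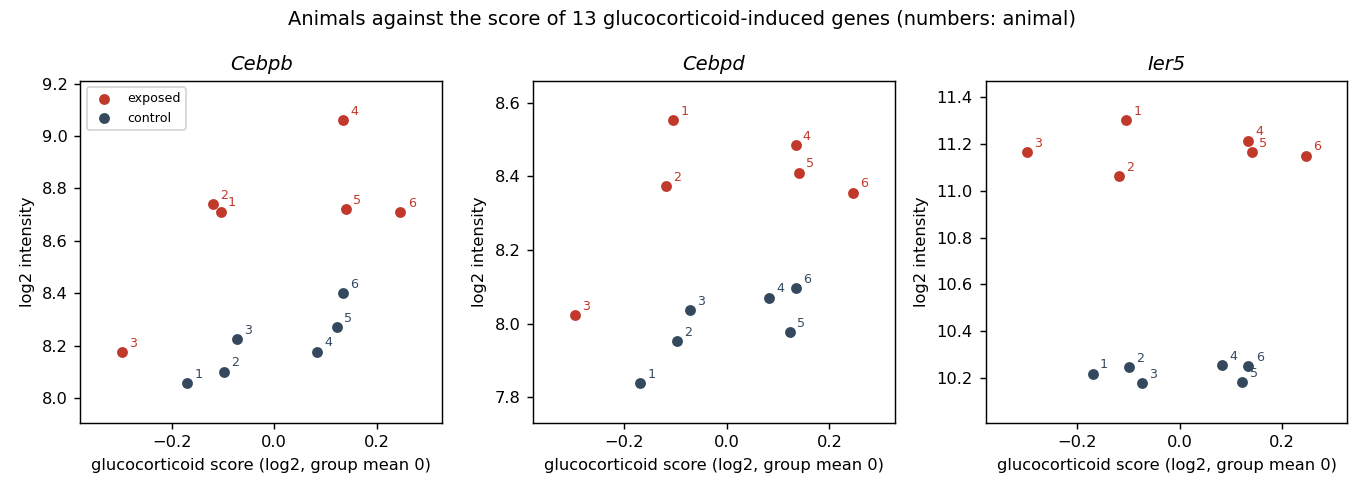
Log2 intensity of Cebpb, Cebpd and Ier5 (vertical axes, not from 0) against the glucocorticoid score (log2, group mean set to 0) of 6 exposed (red) and 6 control animals (dark blue), numbered by animal. Exposed animal 3 has the lowest score and is the leftmost point in every panel. Its log2 intensity is near those of the controls in Cebpb and Cebpd, and among those of the other exposed animals in Ier5.

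Genes related to the 10 were examined as 6 lists with 78 genes on the array. Of these, 6 rose and 0 fell in limma (adjusted p under 0.05), with a median log2 change of 0.01. Over all 14217 named genes, 2.62% were higher and 0.844% lower. All 6 lists were drawn up with earlier results of these arrays known. Their counts and p-values are thus a description and no independent support. Among close relatives of the 10 genes, 3 of 12 rose and 0 fell (median 0.12). Ier5l, the nearest relative of Ier5, ran from 259 to 320 (median 286) in exposed animals and from 200.5 to 228 (median 208) in control animals, a log2 change of 0.44 ± 0.05 (adjusted p = 0.00137 in limma). Ddit3 (CHOP), a C/EBP relative induced by stress of the endoplasmic reticulum, ran from 748 to 865 (median 791) in exposed animals and from 569 to 685 (median 577) in control animals. Its change was 0.42 ± 0.05 (adjusted p = 0.00121 in limma). Trib2, a paralogue of Trib1, ran from 1450.0 to 1728 (median 1663) in exposed animals and from 1230 to 1378 (median 1334) in control animals, a change of 0.30 ± 0.05 (adjusted p = 0.00849 in limma). In each of the 3, every exposed animal lay above every control. The other 9, which include Cebpa, Cebpg, Maf, Mafg, Csrnp2, Csrnp3 and Trib3, did not pass, and of them Mafa and Cebpe were below the floor on all arrays.

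Of the serum response factor and its cofactors, 1 of 6 rose and 0 fell (median 0.06). The counts here also stand beside the 2.62% higher and 0.844% lower over all named genes, and lists this short give imprecise shares. Srf itself, which binds the CArG box of many early genes, ran from 1483 to 1686 (median 1566) in exposed animals and from 1198 to 1352 (median 1298) in control animals, without overlap. Its log2 change was 0.28 ± 0.04 (adjusted p = 0.00191 in limma). Of the interleukin-6 pathway, which induces Cebpb and Cebpd in liver, and of acute-phase genes, 2 of 19 rose and 0 fell (median 0.02). Il6r, the interleukin-6 receptor, ran from 167 to 209 (median 199) in exposed animals and from 131 to 159 (median 136) in control animals, a change of 0.47 ± 0.06 (adjusted p = 0.00248 in limma). Jak2, a kinase of cytokine receptors, ran from 394 to 455 (median 418) in exposed animals and from 329 to 372 (median 345) in control animals, a change of 0.27 ± 0.04 (adjusted p = 0.00500 in limma). Il6, Lif, Orm1 and Serpina3n were below the floor on all arrays. With the animal number as a block, 4 of the 78 related genes were called, and Trib2 (adjusted p = 0.0849), Il6r (0.0750) and Jak2 (0.0611) were not among them.

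The lists of partners, which do not cover every partner of the 10 proteins, gave no call in limma. Of the small Maf partners 0 of 5 passed (median -0.01), with the smallest p for Keap1, which holds Nrf2 in check (log2 change -0.08, adjusted p = 0.227). Ier5 binds PP2A and Hsf1. Of PP2A subunits and heat shock factors, 0 of 15 passed (median -0.02), with the smallest p for Hsf1 (0.22 ± 0.07, adjusted p = 0.185 in limma). Of the Cop1 ligase and proteasome subunits, through which Trib1 and Midn act, 0 of 21 passed (median 0.01), with the smallest p for Cul4a (-0.10 ± 0.03, adjusted p = 0.177). An unadjusted p under 0.05 was reached by 2, 3 and 1 genes of these lists, and by 4094 of 31042 probe sets over the whole array.

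**Figure D5:**
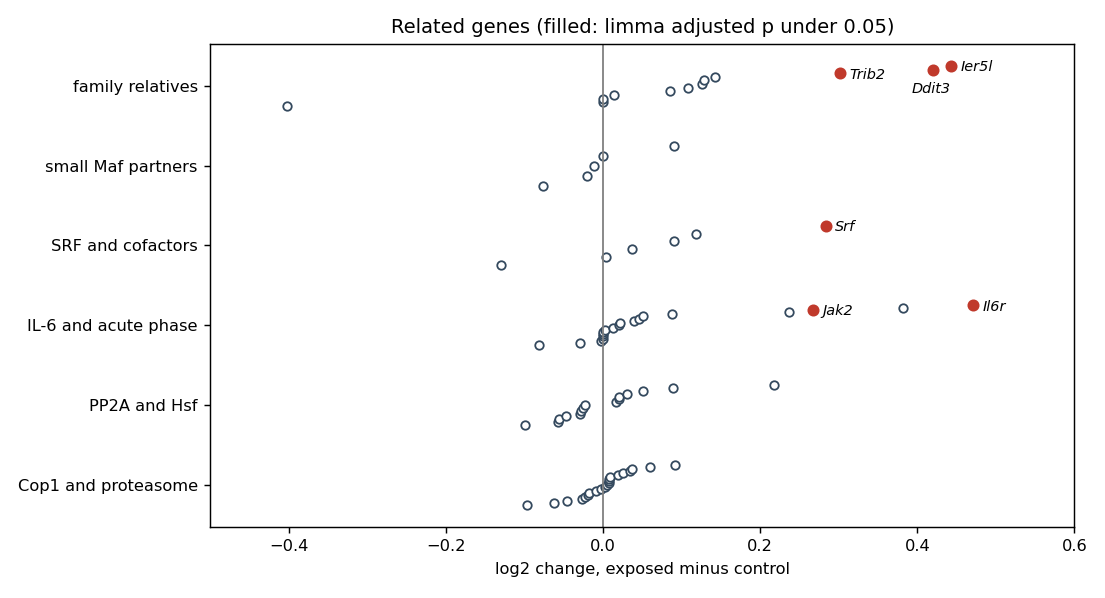
Log2 change (exposed minus control) of 78 related genes in 6 lists, 1 point per gene at its brightest probe set. Filled red points passed in limma at an adjusted p under 0.05 and are named. The 6 that passed all lie to the right of 0, and the lists of partners hold none.

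Cebpb, Cebpd and Ier3 are also expressed in glia and vessel cells, so markers of cell types were read beside them. Summed intensities overlapped between the groups for all 8 marker lists. Median log2 changes of the lists ran from -0.13 (meningeal fibroblasts) to 0.00 (oligodendrocytes). Meningeal fibroblast markers (8 genes, 0 passed) summed to 6823 to 8501 in exposed animals and 7858 to 9324 in control animals. Microglial markers (11 genes, 0 passed) summed to 5792 to 6398 in exposed animals and 5755 to 6442 in control animals. Astrocyte markers (9 genes, 0 passed) summed to 63638 to 69221 in exposed animals and 65187 to 69759 in control animals. Endothelial and mural markers (11 genes) summed to 8350 to 9026 in exposed animals and 8881 to 9606 in control animals, with 1 lower, Slco1a4. Neuronal markers (12 genes, 0 passed) were high on every array, as the forebrain label requires. None of the microglial, astrocyte, endothelial and mural, or neuronal markers was below the floor on all arrays. Whether cell composition has a part in the changes of the 10 genes was not tested.

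The genes whose variation within the groups was most like that of the 9 measured ones were Slc22a6, Lin37, Nkiras2, Spatc1l and Spry1, out of 10965 genes compared. Their Pearson r with the mean of the 9, over 12 animals with group means removed, was 0.85, 0.84, 0.82, 0.82 and 0.81. These are the highest of many values from 12 arrays and are given as a description. None of the 5 passed between the groups in limma, their log2 changes being -0.09 to 0.02.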

How the data were processed

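RNA of 12 rat forebrains was hybridised to Affymetrix arrays, 1 animal per array, with biotin-labelled cRNA, per the labels' protocols. Deposited values are linear intensities, 1 for each probe set and array; the background correction, probe summary and normalization used by the authors are not given in the sources used here. Array medians ran from 235 to 245, so the deposited values were not normalized again. Values under the 20th percentile (53.8) were set to it before taking log2. A linear model with the group was fitted to 31042 probe sets with limma 3.58.1 in R 4.3.3 (lmFit, eBayes with a trend), leaving out 57 array controls, with Benjamini-Hochberg adjustment over all. The model was also run on simulated data with known changes, and the outcome is not given here. Values there were drawn independently for each probe set, so effects shared across an array were not simulated. The score slopes use the same model with the score added.

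Names come from the platform annotation, in which 20826 probe sets had 1 symbol, 436 several and 9780 none. Genes are given by the probe set with the highest mean. Named are all probe sets of the 10 genes, up to 4 passing genes of each related list (or the smallest p), up to 4 glucocorticoid score genes, and the 5 genes most alike. The other activity score genes are named beside them to define the score, and related genes that did not pass are named as examples or for being below the floor. The genes and lists were chosen with earlier results of these data known. The number of arrays limits the precision.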

Additional observations from a re-analysis of the deposited data

Results flagged for a closer look

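In 37 sets of 6 animals checked (the 16 probe sets of the 10 genes and the 6 related genes that passed, in each group, without those at the floor), 4 had an animal far from the others by Dixon's measure, the gap to its neighbour as a share of the range. Chance gives about 1 in 20. Exposed animal 1 was high in Ier2, at 453 units with the next at 376 (share 0.635). Exposed animal 3 was low in Cebpd, at 260.1 with the next at 328 (share 0.629), and in Il6r, at 167 with the next at 194 (share 0.664). Control animal 3 was high in Ddit3, at 685 with the next at 590.3 (share 0.803).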

How the results depend on the processing

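Over 25 alternatives, of which 12 left out 1 animal each, the direction of the log2 change held for each of the 9 genes above the floor. Ier5 ran from 0.63 to 0.98, Trib1 from 0.33 to 1.07, Cebpd from 0.22 to 0.50, Csrnp1 from 0.29 to 0.58 and Cebpb from 0.41 to 0.67. The low ends of Ier5, Trib1 and Cebpd come from averaging all probe sets of a gene, which for Ier5 adds dimmer ones and for Trib1 and Cebpd also ones at the floor, and that of Csrnp1 from the floor at the 40th percentile, which gave 0.59 for Trib1. The median over the 10 genes was 0.43 with the floor at the 40th percentile, 0.57 with the RNA quality covariate, 0.40 with the mean of all probe sets, and 0.47 to 0.54 with 1 animal left out. The slopes on the glucocorticoid score ran from 0.14 to 1.82 for Cebpb and from -0.19 to 1.40 for Cebpd, lowest with the RNA quality covariate and highest with the replicate block, and neither passed in any alternative. Higher probe sets numbered 451 to 622 with 1 animal left out and lower ones 103 to 182. The lower count was 103 without control 3, 112 without control 5, 117 without control 6, 104 without exposed animal 1, 72 with RNA quality and 82 without control 4 and exposed animals 3 and 5 together, an alternative chosen after seeing the data. With the replicate number as a block, 359 were higher and 76 lower, and the cause was not tested. Same-numbered animals deviated together at correlations of -0.08 to 0.16, so the numbers are not taken as pairs. With animals 1 to 3 and 4 to 6 as a term, 714 probe sets were higher and 247 lower. The main fit gave 610 and 186, and what the numbers stand for was not tested. The number of related genes called was 4 to 8 higher and 0 lower throughout. The low signal of Maff and of the dim probe sets limits what can be read from them.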
